A study of Mus musculus with 60 samples.

Results

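The regions described here are acetylated open sites gained after both axotomies: stretches of DNA with an ATAC-seq peak after sciatic nerve axotomy and after spinal cord axotomy, with none after either control operation, and with an acetylated histone peak after at least 1 of the axotomies. There were 2781 of them among 368411 merged ATAC regions (0.755%). All came from the lumbar dorsal root ganglia (DRG, L4 to L6) of C57BL/6 mice aged 6 to 8 weeks, taken 24 hours after surgery. The 4 groups were sciatic nerve axotomy (SNA), sham sciatic nerve surgery (Sham), spinal cord dorsal column axotomy (DCA) and laminectomy (Lam), and no other treatment or allele was labelled. ATAC-seq, which maps DNA that a transposase can reach, used 3 samples of 1 mouse each per surgery. Chromatin immunoprecipitation sequencing (ChIP-seq) for the acetylated histones H3K9ac and H3K27ac and for the trimethylated histone H3K27me3 used 2 samples per mark and surgery, each a pool of 10 mice.

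The DRG holds the cell bodies of sensory neurons, each of which sends 1 branch into the peripheral nerve and 1 into the spinal cord. The peripheral branch can regrow after it is cut, whereas the central branch in the dorsal columns largely cannot. H3K9ac and H3K27ac sit at active promoters and enhancers, H3K27me3 is laid down by Polycomb complexes at silenced genes, and a site that opens and carries acetylation is a usual description of an enhancer in use. Whole ganglia were profiled, so a change in the number of cells of a type and a change in the chromatin of each cell cannot be told apart.

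Members were found by merging the peaks of the 4 ATAC lists that overlapped by 1 bp or more. A merged region was kept when it held a peak of SNA and of DCA and none of Sham or Lam, and overlapped an H3K9ac or H3K27ac peak of SNA or DCA. The ATAC calls of all 4 surgeries and the acetylation calls of SNA and DCA therefore chose the members: these were selected on peak presence in those lists, and the values are given as description only. The files hold 1 peak list per assay and surgery, made from pooled replicates, so no value carries a replicate error and no difference between surgeries could be tested. Wilson 95% intervals are given for shares of regions, and they cover counting error only.

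RefSeq promoter windows, 250 bases before to 50 bases after a transcript start, gave the sequence at and around members that reached a start. In all, 112 members (4.03%) overlapped 130 such windows of 117 gene symbols by at least 1 base. The overlap ran from 2 bases to the whole window, with a median of 269 bases, and 56 windows lay wholly in a member. Below are the upstream bases, outside any annotated gene, of 6 protein-coding promoters, on the gene's own strand and with GRCm38.p6 coordinates. Pon3 is shown because its member leads when each is ranked by the weaker of its SNA and DCA peaks, and Otub2, Cldn15 and Pir because they hold the AP-1 motif TGANTCA, the letters bound by JUN, FOS and some ATF proteins. Col8a1 is shown for its repeated KLF and SP motif GGGCGG, and Jph4 as a window that lies in its member from end to end without either motif. Capitals mark matches, on either strand, to the AP-1, CRE, STAT, KLF and SP, and ETS motifs.
Pon3 (chr6:5256286-5256483, minus strand): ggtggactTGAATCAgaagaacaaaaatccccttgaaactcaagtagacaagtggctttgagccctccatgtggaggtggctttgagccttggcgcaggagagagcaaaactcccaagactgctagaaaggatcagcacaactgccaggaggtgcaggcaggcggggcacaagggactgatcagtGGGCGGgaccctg
Otub2 (chr12:103376644-103376893, plus strand): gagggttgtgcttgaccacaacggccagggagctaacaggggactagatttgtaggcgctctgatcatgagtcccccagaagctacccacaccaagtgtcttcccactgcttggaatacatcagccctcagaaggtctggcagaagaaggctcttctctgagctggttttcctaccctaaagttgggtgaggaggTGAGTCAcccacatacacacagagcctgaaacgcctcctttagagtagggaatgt
Cldn15 (chr5:136967619-136967868, plus strand): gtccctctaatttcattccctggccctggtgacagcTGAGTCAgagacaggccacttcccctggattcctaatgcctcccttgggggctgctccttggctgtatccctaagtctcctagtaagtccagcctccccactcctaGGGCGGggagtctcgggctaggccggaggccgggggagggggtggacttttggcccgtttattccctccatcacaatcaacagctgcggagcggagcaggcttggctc
Pir (chrX:164269181-164269430, plus strand): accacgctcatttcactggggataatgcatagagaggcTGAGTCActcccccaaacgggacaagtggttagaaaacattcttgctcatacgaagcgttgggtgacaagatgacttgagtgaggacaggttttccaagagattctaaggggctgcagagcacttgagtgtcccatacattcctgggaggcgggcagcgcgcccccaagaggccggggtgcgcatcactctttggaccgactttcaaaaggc
Col8a1 (chr16:57754738-57754987, minus strand): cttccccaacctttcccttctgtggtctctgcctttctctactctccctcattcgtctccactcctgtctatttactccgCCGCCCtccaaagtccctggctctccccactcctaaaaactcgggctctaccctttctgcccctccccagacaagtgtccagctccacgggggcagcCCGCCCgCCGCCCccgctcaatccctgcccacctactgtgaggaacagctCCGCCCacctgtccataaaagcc
Jph4 (chr14:55116936-55117185, minus strand): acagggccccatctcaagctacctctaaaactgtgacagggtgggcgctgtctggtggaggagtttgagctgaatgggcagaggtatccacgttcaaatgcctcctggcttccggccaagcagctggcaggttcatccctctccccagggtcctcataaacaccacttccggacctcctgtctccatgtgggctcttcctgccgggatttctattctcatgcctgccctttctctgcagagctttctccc

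Pon3 encodes a paraoxonase, an enzyme that opens lactone rings, and its member covered 259 of the 300 promoter bases. The first 41 bases of its printed stretch lie beyond the member, and they include the AP-1 match at bases 9 to 15, counted from the 5′ end of that stretch. Otub2 encodes a deubiquitinase, and its ATAC −log10 p was 4.97 in SNA and 6.04 in DCA. Cldn15 encodes a claudin of tight junctions, Pir an iron-binding nuclear protein, Col8a1 a short-chain collagen, and Jph4 a junctophilin that ties the plasma membrane to the endoplasmic reticulum. The AP-1 motif was present in 17 of the 130 member windows (13.1%, interval 8.33% to 19.9%), beside 7.81% of all 32851 promoter windows. A match lay inside the member itself in 15 of the 17. Among the 56 windows wholly in a member 8 held the motif (14.3%), with an interval of 7.42% to 25.7% that includes the share of all windows. In windows of acetylated regions open in Sham and Lam only it was present in 4 of 47 (8.51%), an interval of 3.36% to 19.9% that overlaps that of the members. Within the 100 bases before the start the member share was 6.15% (3.15% to 11.7%) and the share of all windows was 2.73%. Where the acetylation peaks had to reach a −log10 q of 5, the AP-1 motif was present in 7 of 86 windows (8.14%). The upper bound of that share was 15.9%, so its interval overlapped that of the members. Where the ATAC peaks had to reach that threshold, it was present in 15 of 322 windows. This share of 4.66% (2.84% to 7.54%) lay below that of all windows. It came from a largely different set: only 69 of its 1178 regions overlapped a member, and 1108 held a weaker Sham or Lam peak. The 4.66% is therefore not a share of the members themselves. The E-box CAGCTG was present in 26.9% of member windows (20.0% to 35.1%) and in 16.3% of all windows. In windows of acetylated Sham-and-Lam-only regions it was present in 23.4% (13.6% to 37.2%), and within 100 bases of the start in 8.46% of member windows (4.79% to 14.5%) and 5.81% of all windows, so these intervals do not set the members apart. The GGGCGG motif was present in 36.9% of member windows and 35.7% of all windows, whereas it was present in 66.3% of windows in regions open after all 4 surgeries. Of the 14 motifs searched in windows of 300 bases, AP-1 and CAGCTG were those for which the share of all windows lay below the member interval, and for the others it lay inside. In windows of 100 bases it lay below for AP-1, ETS and EGR, and inside for CAGCTG. Windows of neighbouring starts can share a member, and a match in these letters is a description of the window and not a binding site. The member windows had a median GC content of 54% in the 250 upstream bases, between the 52.4% of all windows and the 61.6% of windows open after all 4 surgeries.

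Regions with an ATAC peak in SNA and DCA only numbered 15699 (4.26% of all merged regions), and those in Sham and Lam only numbered 9653 (2.62%). Of the SNA and DCA regions 17.7% (interval 17.1% to 18.3%) carried an acetylation peak of SNA or DCA and so became members, beside 18.1% of all merged regions. The same acetylation calls marked 17.7% of the regions open in SNA and Lam only, 16.6% of those in Sham and SNA only, 17.2% in Lam and DCA only, 15.4% in Sham and DCA only and 16.4% (15.7% to 17.2%) in Sham and Lam only. Sharing both axotomies thus went with a larger number of regions than any of the other 5 pairs of lists, but with an acetylated share that matched that of SNA with Lam. With the 4 ATAC lists cut to equal length the number of gained regions over that of Sham-and-Lam-only regions was 1.23, where it was 1.63 with the full lists. The number of ATAC peaks was highest after SNA, with 174605, followed by DCA with 164365, Lam with 158160 and Sham with 153556.

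**Figure D1:**
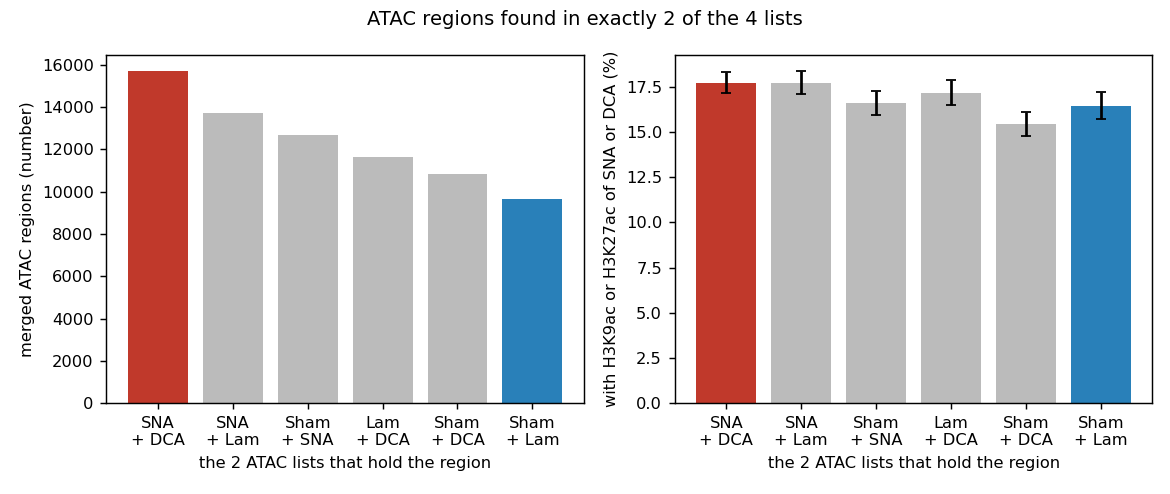
Merged ATAC regions found in exactly 2 of the 4 lists, by pair of lists: their number (left) and the percent with an H3K9ac or H3K27ac peak of SNA or DCA (right, bars with Wilson 95% intervals for counting error). SNA with DCA is the most numerous pair with 15699 regions, while its acetylated share of 17.7% equals that of SNA with Lam.

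The ATAC peaks of the members had medians close to those of their own lists, but fewer strong peaks. Values of −log10 p in SNA ran from 2.47 to 18.9 with a median of 4.92, beside 4.95 for all SNA peaks. In DCA they ran from 2.35 to 18.2 with a median of 4.72, the same as for all DCA peaks. Median fold enrichment over local background was 1.97 in SNA and 1.93 in DCA. Regions open after all 4 surgeries were stronger, with median −log10 p of 8.56 in SNA and 7.71 in DCA. Among members 369 (13.3%) reached a −log10 q of 5 in SNA and 239 (8.59%) in DCA, beside 20.1% of all SNA peaks and 16.3% of all DCA peaks. In both lists 69 members reached it. Applied to all 4 ATAC lists, that threshold gave 1178 regions, but 1108 of these held a weaker Sham or Lam peak and only 69 overlapped a member. Single peaks made up nearly all members, with 1 peak of each list in 2678, and the summits of SNA and DCA lay within 100 bp of each other in 1530 (55.0%).

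**Figure D2:**
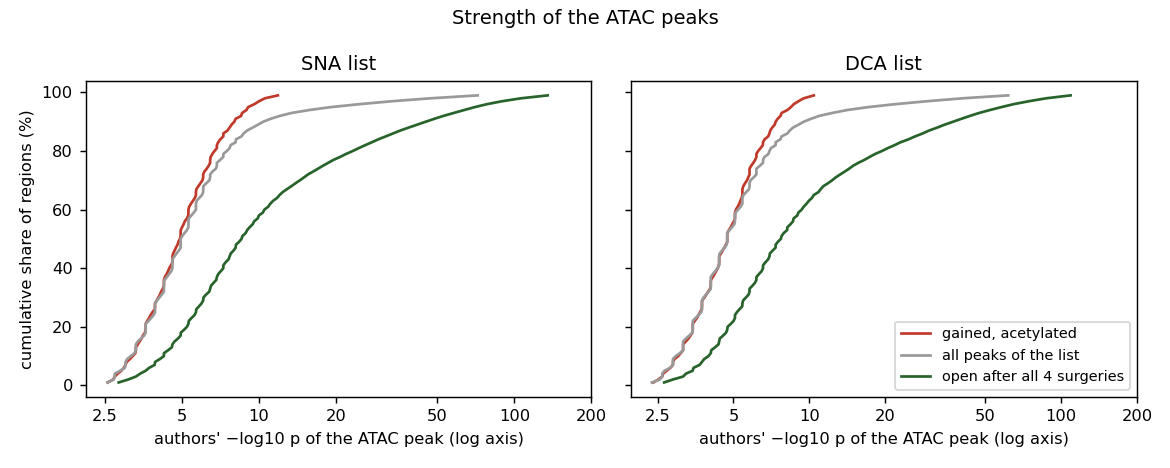
Cumulative share of regions or peaks by the authors' −log10 p (log axis) in the SNA and DCA lists, for members, all peaks of the list and regions open after all 4 surgeries. The member curve lies close to that of all peaks up to its median of 4.92 in SNA and 4.72 in DCA, and reaches less far to the right than both other curves.

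The absence of a control ATAC peak means only that none was called, since control signal at the members was not measured. The median distance from a member to the nearest Sham or Lam ATAC peak was 1.19 kb. For 120 members (4.31%) it was at most 100 bp, and their median −log10 p was 4.79 in SNA and 4.63 in DCA, while the 1554 with no control peak within 1 kb had 4.95 and 4.72. Just outside the rule lay 48 regions that failed only because 1 control list overlapped them by at most 100 bp, with medians of 5.05 and 4.97. On the acetylation side, 106 members had at most 100 bp covered (medians 5.07 and 4.55), and 104 gained regions missed an acetylation peak by at most 100 bp (medians 4.69 and 4.68).

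The acetylation of SNA and DCA, which the rule used, was more often H3K9ac than H3K27ac, at the members as in all regions. H3K9ac of SNA or DCA was listed at 88.4% of members and at 90.9% of all merged regions with either mark, and H3K27ac at 56.3% and 63.9%. In the SNA and DCA lists 1215 members (43.7%) had H3K9ac alone, 323 (11.6%) had H3K27ac alone and 1243 (44.7%) had both. Acetylation was found after SNA alone in 530, after DCA alone in 806 and after both axotomies in 1445 (52.0%). A single one of the 4 injury lists supplied the acetylation of 1201 members, and 409 had a peak in all 4. The H3K9ac lists differed in length, with 74652 peaks in SNA and 89647 in DCA, as did the H3K27ac lists, with 75824 and 46489. Acetylation covered a median of 80.8% of a member, and 924 members lay wholly inside it.

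Acetylation was in most cases already listed in the controls, which the rule did not use. Of the members 1775 (63.8%, interval 62.0% to 65.6%) also overlapped an H3K9ac or H3K27ac peak of Sham or Lam, beside 70.1% of all merged regions with acetylation of SNA or DCA. No control acetylation was listed at 1006 members (36.2%), where the share of all acetylated regions was 29.9%. H3K9ac was present after both axotomies and after neither control at 331 members (11.9%), and H3K27ac likewise at 46 (1.65%). The shares of all merged regions with acetylation of SNA or DCA were 9.03% and 1.89%, and those of the Sham-and-Lam-only regions with the same filter were 11.8% and 2.27%. By list, H3K9ac was found at 72.9% of members in DCA and 59.1% in SNA, and at 36.7% in Sham and 29.6% in Lam. H3K27ac was found at 46.5% in SNA and 42.1% in Lam, and at 28.1% in DCA and 26.4% in Sham. The laminectomy control thus had H3K27ac at more members than DCA did, and the H3K27ac list of Lam was also longer, with 67311 peaks. Members with both marks had control acetylation in 87.7% of cases, members with H3K9ac alone in 42.1% and members with H3K27ac alone in 53.9%.

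**Figure D3:**
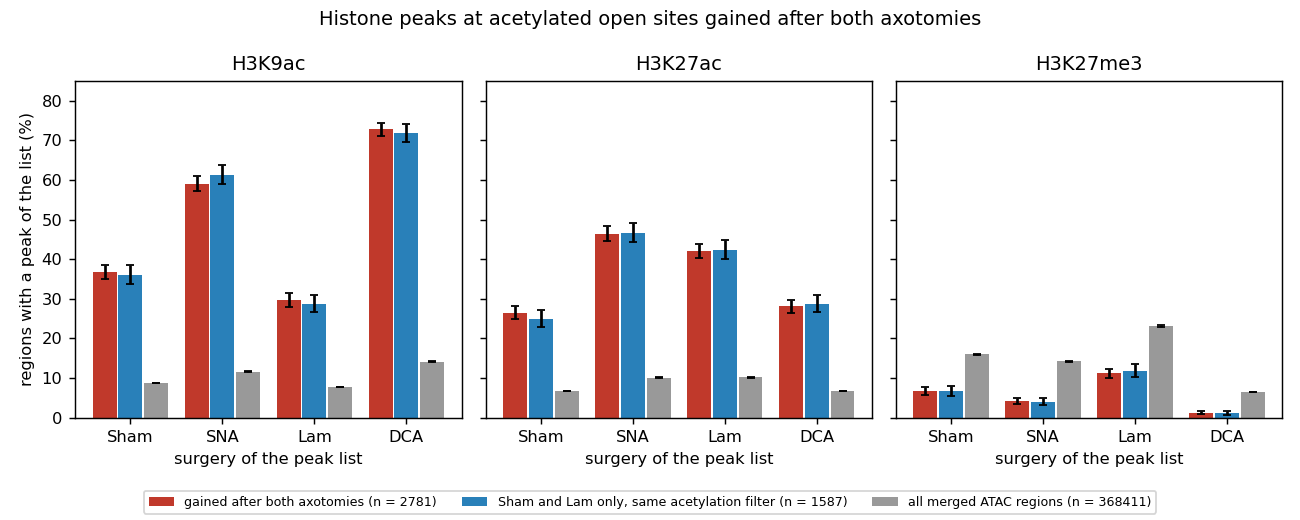
Percent of regions that overlap a peak of each H3K9ac, H3K27ac and H3K27me3 list, for the 2781 members, the 1587 regions open in Sham and Lam only that pass the same acetylation filter, and all 368411 merged regions, with Wilson 95% intervals. Members and Sham-and-Lam-only regions stand at like heights in each list, both above all regions for acetylation and below them for H3K27me3.

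Regions present in Sham and Lam only served as the comparison. With acetylation of Sham or Lam, the exact mirror of the rule, there were 1205 (0.327% of all merged regions). They made up 12.5% of the 9653 regions open in Sham and Lam only, where 14.6% of all merged regions had such acetylation. With the same filter as the members, acetylation of SNA or DCA, there were 1587. Of these 1587, 63.9% had control acetylation, and the difference in percentage points, members minus comparison, was −0.0681 (Newcombe 95% interval −3.01 to 2.91). The acetylation lists of SNA and DCA chose both sets, and their shares are shown only as description in the plot of histone peaks by list. For all 15 other features compared, which were the control acetylation and H3K27me3 lists, their combinations and position, the interval of the difference included 0. The difference that was largest in size was 1.54 points, for H3K27ac of Sham (−1.17 to 4.20). Over the 15 features the interval bounds ran from −3.74 to 4.20 points.

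H3K27me3 was sparse at the members, as it was at acetylated regions in general. A peak of SNA or DCA overlapped 136 members (4.89%) and a peak of Sham or Lam 433 (15.6%). The shares of all merged regions were 17.9% and 31.3%. Sham-and-Lam-only regions with acetylation of SNA or DCA stood at 4.85% and 16.4%, and regions open after all 4 surgeries with that acetylation at 3.92% and 19.8%. Gained regions without acetylation stood at 21.8% and 39.2%. By list the member share was 11.1% in Lam, 6.62% in Sham, 4.14% in SNA and 1.22% in DCA. In all merged regions Lam was likewise highest, at 23.1%, and DCA lowest, at 6.50%. The H3K27me3 peaks were weak as a whole, with list medians of −log10 p between 0.75 and 0.88, and with a q of at most 0.05 required no member kept a peak. Members without control acetylation held an H3K27me3 peak of SNA or DCA in 6.66% of cases and those with it in 3.89%.

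Most members lay inside genes and away from their ends. Of all members 232 (8.34%) lay within 1 kb of an end of a protein-coding gene, 1796 (64.6%) lay elsewhere in a gene and 753 (27.1%) lay between genes. In all merged regions 7.89% were at a gene end, 50.0% in a gene and 42.1% between genes, and gained regions without acetylation stood at 4.81%, 51.2% and 44.0%. Acetylated regions open after all 4 surgeries were at a gene end in 53.2% of cases. A typical member was 599 bp wide and 18.2 kb from a gene end, and 8.79 kb from the nearest region open after all 4 surgeries. Gained regions without acetylation were farther from such regions, at a median of 16.8 kb. The 2781 members fell in 2952 of the 125405 merged acetylation regions of SNA and DCA, of which 192 also held a region open after all 4 surgeries. Across autosomes the share of merged regions that were members ran from 0.532% on chromosome 9 to 1.10% on chromosome 11. Chromosome X had 15 members, but only 686 merged regions.

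The 20 members with the highest value of the lower of their −log10 p in SNA and DCA led with Pon3, Fhod3 and Mapt. The Pon3 member (chr6:5256022-5256442) overlapped the gene's end, and had −log10 p of 14.0 after SNA and 13.4 after DCA, with fold enrichments of 3.17 and 3.04. The nearest control ATAC peak was 40853 bp away, yet H3K9ac peaks of all 4 surgeries overlapped the site. Its H3K9ac −log10 p was 5.80 in the Sham list and 3.76 in that of Lam, 5.31 in that of SNA and 4.33 in that of DCA, so the site carried called acetylation with and without an ATAC peak. The member in Fhod3, a formin that builds actin filaments, likewise had H3K9ac in all 4 lists.

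The Mapt member (chr11:104272372-104272748) lay inside the gene for the microtubule-binding protein tau, 43.0 kb from its ends. Its −log10 p was 18.9 after SNA, the highest in that list among members, and 11.6 after DCA. No acetylation of Sham or Lam overlapped it, whereas H3K9ac was listed at 6.50 in SNA and 6.97 in DCA and H3K27ac at 9.64 in SNA. That overlap was on 1 side only. Around its centre the member ran from −0.188 to 0.189 kb, while H3K9ac ended at −0.123 kb in SNA and −0.187 kb in DCA. The H3K27ac peak of SNA ended at −0.074 kb. On the other side, outside the member, H3K27ac peaks of Lam began at 0.444 and 0.957 kb. The nearest control ATAC peak, of Sham, lay 1570 bp away. Of the 20 members 6, Mapt among them, had no acetylation peak of a control operation.

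The other members of this group lay at or nearest Ciz1, Nt5c3, Tmem131, Amotl1, Dcn, Lpp, Trim47, Reep5, Nemp2, Uggt1, Rnf220, Bcor, Btd, Kif21a, Nf1, Vwa8 and Kcnh2. At Amotl1, which encodes an angiomotin of the Hippo pathway, and at Rnf220, a ubiquitin ligase, the acetylation came from the H3K9ac list of DCA alone. At Uggt1, which encodes a glycoprotein quality-control enzyme, it came from the H3K27ac list of DCA alone, with −log10 p of 5.55. At Btd, the gene for biotinidase, all 8 acetylation lists held a peak, with H3K9ac −log10 p of 8.47 in Sham and 10.8 in Lam, and of 12.7 in SNA and 30.0 in DCA. The H3K27ac −log10 p there was 17.4 in Sham and 13.8 in Lam, and 35.8 in SNA and 13.4 in DCA. The member named for Dcn, the fibroblast proteoglycan decorin, lay 166 kb from the gene and is named for it only as the nearest one.

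**Figure D4:**
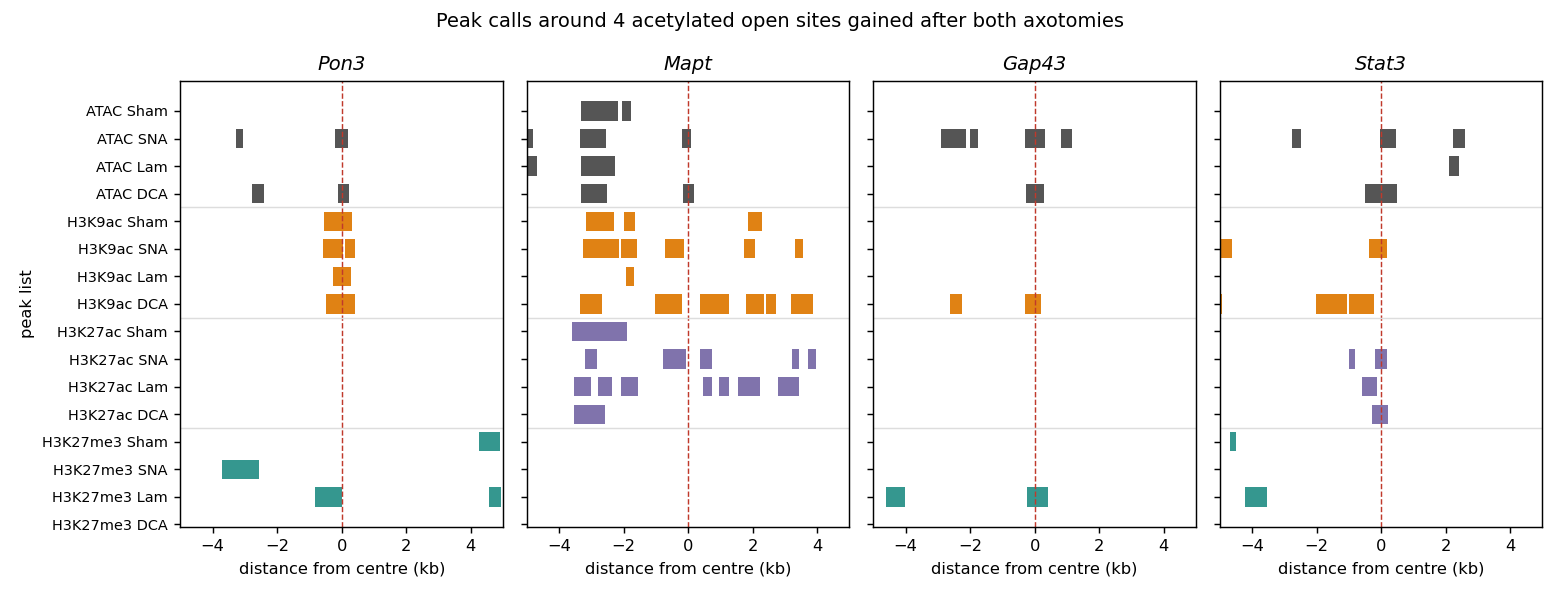
Peak calls of all 16 lists within 5 kb of the centre of the members at Pon3, Mapt, Gap43 and Stat3 (horizontal axis, distance in kb; bars, the extent of each peak). At Mapt and Gap43 no control list of ATAC or acetylation holds a peak at the centre, while at Pon3 H3K9ac peaks of all 4 surgeries do. At Gap43 an H3K9ac peak of DCA covers the centre. At Mapt the acetylation peaks of SNA and DCA miss the centre as well, and overlap the member on 1 side only.

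Some genes held many members. A member lay in or within 10 kb of 2101 of 21883 protein-coding genes (9.6%), and an acetylated site of Sham and Lam only lay near 1093 (4.99%). Sipa1l2, of a family of Rap GTPase activators, and Fyn, a Src family kinase of neurons and myelinating glia, held 8 each and no Sham-and-Lam-only site. Tead1, the DNA-binding partner of YAP and TAZ in the Hippo pathway, held 8 members and 3 Sham-and-Lam-only sites. Ralgps1, a Ral exchange factor, Sgms1, a sphingomyelin synthase, Cux1, a homeobox factor, and Rere, a corepressor, held 7 each, with 1, 0, 1 and 0 Sham-and-Lam-only sites. Itsn1, an endocytic scaffold, and Spata13 held 6 each, and Cradd, a death-domain adaptor, held 5. These genes are long, from 149 to 340 kb, beside a median of 17.2 kb over all genes. Sipa1l2 had the highest density of the 10, at 46.6 members per Mb of gene and flanks, where all genes had 1.89. At Fyn the ATAC −log10 p of 1 of its sites (chr10:39518369-39518619) was 10.8 after SNA and 3.93 after DCA, so a strong call after 1 axotomy could meet a weak one after the other.

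Transcription factors of the injury response had members in or within 10 kb of 7 of 24 genes, or 29.2% (interval 14.9% to 49.2%), beside 9.6% of all genes. The density was 11.3 per Mb, but 8 of the 15 sites lay in Tead1. Acetylated sites of Sham and Lam only had 3.01 per Mb near the same list, beside 0.85 near all genes. There were 4 of them, 3 in Tead1 and 1 near Stat3. Atf3, a factor induced in axotomised neurons, had a member 1.13 kb from the gene (chr1:191184462-191185166) with weak ATAC peaks, at −log10 p of 3.55 in SNA and 4.53 in DCA. That site was acetylated in all 8 lists, with H3K9ac at 6.05 in Sham and 4.24 in Lam beside 8.19 in SNA and 9.27 in DCA. Stat3, the effector of interleukin-6 family cytokines, had a member inside the gene (chr11:100898479-100899463) at 6.51 in SNA and 5.65 in DCA. There H3K9ac was listed after both axotomies and after neither control, at 4.80 and 5.87. H3K27ac was listed at 3.89 in SNA and 5.67 in DCA but also at 4.31 in Lam. Smad1, a transducer of bone morphogenetic proteins, held 2 sites, and Cebpb, Fos and Runx1 had 1 each. The Cebpb site lay 5.66 kb outside the gene. The Fos site lay 8.79 kb outside the gene and was acetylated in the H3K27ac list of SNA alone.

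In Tead1 the 8 sites spanned weak and strong calls. Their −log10 p ran from 3.46 to 10.1 in SNA and from 2.68 to 8.58 in DCA. H3K9ac of SNA and of DCA was present at each of the 8. H3K9ac of Sham was present at 6 of them, and 2 (chr7:112739426-112739719 and chr7:112854528-112854939) had no control acetylation.

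Growth genes linked to regeneration had members in or within 10 kb of 7 of 44 genes (15.9%, interval 7.93% to 29.4%). That interval includes the 9.6% of all genes. Gap43, a growth cone protein, had a site inside the gene (chr16:42305950-42306565) with −log10 p of 17.7 after SNA and 7.35 after DCA, and folds of 3.52 and 2.37. The fold after SNA was the highest of any member. The nearest control ATAC peak was 13872 bp away and no control acetylation was listed. Its membership rested on 1 H3K9ac peak of DCA with −log10 p of 5.04, with none in SNA, and an H3K27me3 peak of Lam overlapped it. Map1b, a microtubule-associated protein of growing axons, held 3 sites and Sema6a, a transmembrane semaphorin, held 2. Fgf2, Marcksl1, Plaur and Ngfr, which encode a growth factor, a MARCKS-like protein, the urokinase receptor and the p75 neurotrophin receptor, had 1 each. The Marcksl1 site lay 1.58 kb outside the gene and the Plaur site 9.37 kb outside. At Plaur and Marcksl1 all 8 acetylation lists held a peak.

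Sensory receptors and channels held members near 2 of 30 genes (6.67%, interval 1.85% to 21.3%): Kcna2, a voltage-gated potassium channel, and Asic3, an acid-sensing channel whose site lay 8.27 kb outside the gene. Their density, 0.49 per Mb, was below the 1.89 of all genes, and Sham-and-Lam-only sites had 0.73 per Mb near the same list. Axon guidance genes held members in 7 of 30 (23.3%, interval 11.8% to 40.9%), namely Nrp2, Plxna2, Sema6d, Ephb1, Plxnc1, Slit3 and Efna5. Those genes are long, with a list median of 219 kb, and the density of 0.80 per Mb was again below that of all genes. Cytoskeleton and transport genes held members in 5 of 25 (20%, interval 8.86% to 39.1%): the kinesins Kif5c, Kif1b and Kif21a, the kinesin light chain Klc1, and Mapt. The interval includes the 9.6% of all genes. These genes held 8 members and 0 Sham-and-Lam-only acetylated sites, where the counts summed over all genes were 2814 and 1268. In those sums a site counts once for each gene within 10 kb of it. Over the 5 lists of functions together 18.3% of genes (interval 13.0% to 25.2%) had a member within 10 kb, beside 9.6% of all genes. With 50 kb in place of 10 kb the shares were 27.5% and 19.9%. These shares were not matched for gene length. Median length was 53.1 kb for sensory receptors and channels, 219 kb for guidance and 38.5 kb for cytoskeleton genes, beside 17.2 kb for all genes. For the transcription factor and growth lists it was 8.68 and 15.0 kb. The part of gene length in the pooled share was not tested. Where either the ATAC or the acetylation peaks had to reach a −log10 q of 5, 9.15% of the listed genes had a member within 10 kb. Those settings left 1178 and 1284 members. The share of all genes was not counted for them, so the 9.15% has no like value beside it.

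**Figure D5:**
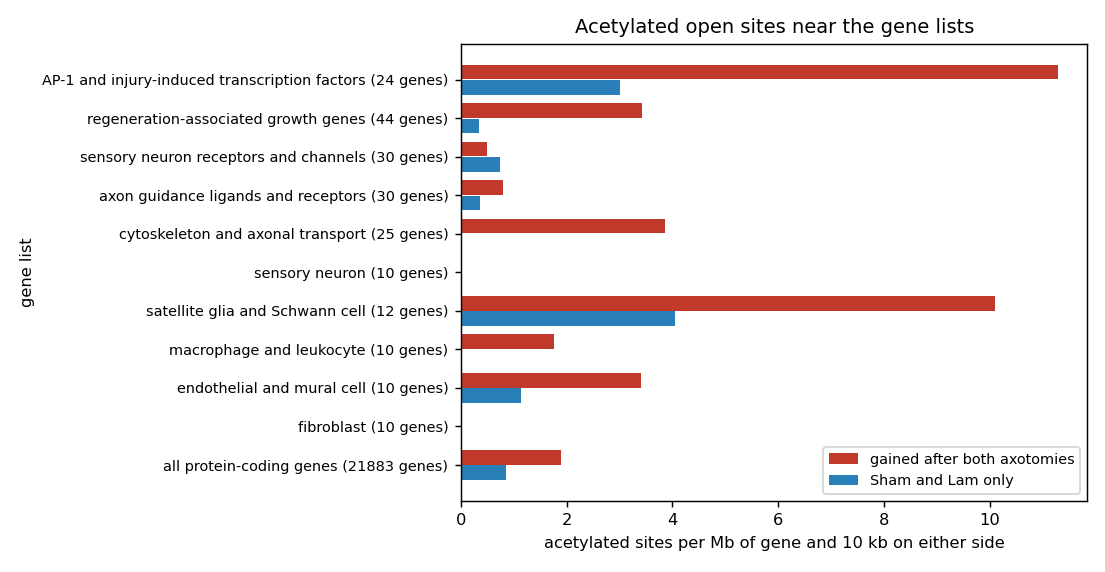
Acetylated sites per Mb of gene and 10 kb on either side for each gene list, for members and for sites open and acetylated in Sham and Lam only. The AP-1 and injury transcription factor list has 11.3 members per Mb and the satellite glia and Schwann cell list 10.1, beside 1.89 for all genes, and the lists of sensory neuron and fibroblast markers have none. Sham-and-Lam-only sites are also denser near the first 2 lists, at 3.01 and 4.04 per Mb, beside 0.85 for all genes.

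Markers of the cells of the ganglion were counted in the same way. A member lay within 10 kb of 0 of 10 sensory neuron markers (interval 0% to 27.8%) and of 4 of 12 satellite glia and Schwann cell markers (33.3%, interval 13.8% to 60.9%), beside 9.6% of all genes. The intervals of the 2 lists overlap. The 4 glial markers were Kcnj10, the potassium channel of satellite glia, Egr2, a regulator of myelination, with 2 sites, and the myelin genes Pmp22 and Mbp. Acetylated sites of Sham and Lam only also lay near Egr2 and Pmp22. Density near the glial list was 10.1 per Mb for members and 4.04 for those sites, beside 1.89 and 0.85 near all genes. At Egr2 the site at the gene's end (chr10:67535045-67535713) had −log10 p of 3.19 in SNA and 5.01 in DCA, and H3K9ac of DCA alone. Members lay near 3 of 10 endothelial and mural markers (Vwf, Pecam1 and Pdgfrb), 1 of 10 macrophage markers (Spi1) and 0 of 10 fibroblast markers. At gene ends, an ATAC peak was listed for 10 of 10 sensory neuron markers in Sham, 9 in Lam, 8 in SNA and 9 in DCA. An H3K9ac peak was called at the ends of 1 of the 10 in Sham, Lam and SNA and of 2 in DCA. Most of these markers thus had no called H3K9ac peak there, which in whole ganglia does not show that the mark was absent from the neurons. Of the 12 glial markers H3K9ac was found at 7 in Sham, 9 in Lam, 11 in SNA and 10 in DCA, from lists of 50332, 50667, 74652 and 89647 peaks. H3K27ac was found at 8 of the 12 in Sham, 11 in Lam, 10 in SNA and 6 in DCA. The part of each cell type in the members was not tested.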

How the data were processed

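Peak lists of mouse DRG were analysed, 1 per assay and surgery, each from pooled replicates per the labels. The build is mm10, per the submitters' processing notes; the aligner, peak caller and settings are not given in the sources used here, and no read totals were used, so sample depth is unknown. The score that the authors deposited was left aside. Fold enrichment, as deposited, is the ratio to local background on a linear scale, and the deposited −log10 p and −log10 q are those of the authors' caller; all describe peaks within 1 list only. ATAC intervals repeated for several summits were counted once, by their strongest summit.

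Regions were merged and counted with numpy 2.4.6 and pandas 2.3.3 (scipy 1.17.1), and the counting was checked on simulated peaks. Genes are the 21883 protein-coding genes of a RefSeq table (GRCm38.p6); it gives no strand, so a gene end is either end, within 1 kb. Motifs were searched in RefSeq promoter windows of 300 bases, since no genome was used here, in place of the planned windows at ATAC summits. Genes are named by fixed rules: the 20 members with the highest lower −log10 p, the 10 genes with most members, and list genes that hold a member. Promoters shown, the Fyn site and the Egr2 site were chosen after their values were seen. The members and gene lists were chosen with earlier results of these data known. ChIP replicates were pools of 10 mice.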

Additional observations from a re-analysis of the deposited data

How the results depend on the processing

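Of 95 alternative values 45 stayed within their interval or within 1.5 times of the reported count and 50 moved. The AP-1 share, above the 7.81% of all promoter windows as reported, was below it with ATAC peaks of −log10 q of at least 5, and for 100-base windows it is to be read against 2.73%. Promoter windows wholly in a member, an alternative chosen after seeing the data, gave 14.3%. With ATAC peaks of −log10 q of at least 5 there were 1178 members and 123 mirror sites (Sham and Lam only, acetylated in Sham or Lam). Only 69 of those 1178 overlapped a reported member, and 1108 held a weaker Sham or Lam peak. Their acetylated share of gained regions was 45.6%, beside 43.6% of all regions, control acetylation 80.0%, both marks 62.2%, gene end 28.4%, median SNA −log10 p 9.93, AP-1 share 4.66% and share of listed genes 9.15%. Lists of equal size gave a median of 5.16. Merging within 1 kb gave 801 mirror sites, 16.2% acetylated, H3K27me3 in 7.02%, gene end 5.58% and listed genes 11.8%. Requiring 50% ATAC cover gave 20.7% acetylated, control acetylation 66.9%, both marks 48.7%, gene end 11.8% and a median of 5.31. Acetylation of −log10 q of at least 5 gave 1284 members, 472 mirror sites, 8.18% acetylated, control acetylation 51.9%, both marks 32.9%, H3K27me3 4.13%, gene end 9.89%, AP-1 8.14% and listed genes 9.15%. Acetylation over 50% of the region gave 13.0%, control acetylation 58.6% and both marks 41.4%. H3K9ac alone gave 15.7% acetylated, control H3K9ac 50.8% and both marks 50.6%. H3K27ac alone gave 1566 members, 9.98% acetylated, control H3K27ac 68.1%, both marks 79.4% and H3K27me3 3.96%. Control peaks were held to the same mark, threshold or cover as each acetylation setting, so control acetylation is not 1 fixed measure across these settings. Acetylation after both axotomies gave 1445 members, 9.20% acetylated, both marks 76.7% and H3K27me3 3.46%. In that setting the 573 mirror sites and the control acetylation of 57.2% required acetylation in both Sham and Lam. Neither is therefore like for like with the reported value, which needed only 1 of them. H3K27me3 with q of at most 0.05 marked 0% of members. A 5 kb gene end held 22.7%, a 50 kb window 27.5% of listed genes, and 100-base windows gave AP-1 in 6.15%. Apart from what each setting changes by construction, the cause was not tested. No paired analysis was possible because each list pools its replicates, and for the same reason no replicate could be left out.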
